A study of Rickenella mellea with 14 samples.

Results

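Of 15477 genes measured in the mushroom Rickenella mellea, 22 were higher in primordia than in vegetative mycelium, higher again in young fruiting bodies, and then held that level in both the cap and the stipe of the mature mushroom. They were chosen on the deposited log2 RPKM values, that is, reads scaled to gene length and library size, on a log2 scale. The primordium mean had to lie at least 1 above the mycelium mean and the young fruiting body mean at least 1 above the primordium mean. The cap and stipe means each had to lie less than 1 from the young fruiting body, every primordium library above every mycelium library, and every young fruiting body library above every primordium library. These steps therefore chose the genes, and their sizes are given as a description without a test.

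Mushrooms grow for most of their life as a mycelium, a network of hyphae. Under suitable conditions hyphae aggregate into a primordium, in which the cap and the stipe are laid down, and the young body then expands into the mature mushroom, whose cap bears the spores. Hyphae of the fruiting body differ from those of the mycelium in their walls, their surface proteins and how they adhere to one another.

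Polyadenylated RNA was sequenced in 14 libraries, all labelled with the strain SZMC22713. Vegetative mycelium (3 libraries) was grown on Fries Agar. Primordia (3 libraries), young fruiting bodies (3), caps (3) and stipes (2) came from mushrooms gathered in the field. Of the primordium libraries, 1 came from stage 1, at about 1 mm tall and without a cap initial, and 2 from stage 2, at 2 to 3 mm. Young fruiting bodies were 5 to 15 mm tall and mature ones 20 to 32 mm. The mycelium ran on 1 flow cell and the 11 field libraries on the other, so growth condition, flow cell and development cannot be told apart at the step from mycelium to primordium. Library totals were 13.6 to 18.4 in mycelium and primordium and 21.5 to 54.6 in the other groups, in units of 1e6 reads. The samples are called biological replicates without the number of individuals, so a p-value here reflects only how these libraries vary, which may be technical. The tissues were read whole, so that fewer cells of a type and less RNA per cell cannot be told apart. The files name gene models only by number, with no product, so no role is given for any of the 22, and the labelled tissues could not be checked against marker genes.

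Few genes combined both steps. A primordium mean at least 1 above mycelium was found for 3895 genes (25.2% of the matrix), and a young fruiting body mean at least 1 above primordium for 5300 (34.2%). Both held for 269 genes, or 1.74% of the matrix, and the cap and stipe limits left 71 of these. The requirement that libraries not overlap left 22. Of the 247 genes with both steps that were left out, the cap lay at least 1 below the young fruiting body in 120 and at least 1 above it in 27, and the stipe at least 1 below in 82 and at least 1 above in 40.

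The largest rises and the highest levels belonged to the same 3 members, gene models 717449, 846821 and 310322. Their mean log2 RPKM ranked 2, 5 and 7 among all 15477 genes in young fruiting bodies, and 11535, 15036 and 12161 in mycelium. Together they took 0.000538% to 0.000935% of the reads of each mycelium library and 0.103% to 0.362% of a primordium library. Young fruiting bodies gave them 2.54% to 3.04%, the caps 2.41% to 4.06%, and the stipes 2.18% to 2.42%. The other 19 members together took 0.0194% to 0.0223% of each mycelium library and 0.0282% to 0.0524% of each primordium library. Their share of a young fruiting body library was 0.139% to 0.207%, of a cap library 0.166% to 0.198%, and of a stipe library 0.21% to 0.238%. In both sets no library of one of the first 3 stages overlapped with the next. The rule had required such a separation of each member's scaled values, so this is a description.

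**Figure D1:**
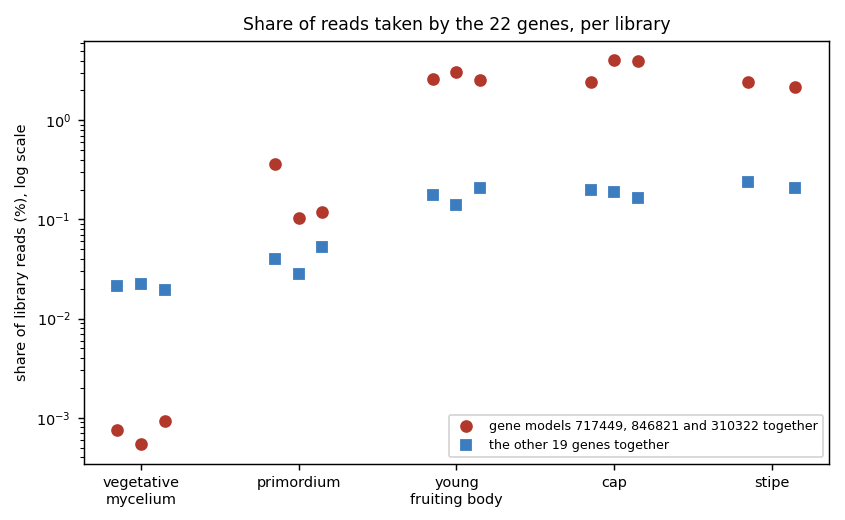
Share of each library's reads (%, log scale) taken by gene models 717449, 846821 and 310322 together (circles) and by the other 19 genes together (squares), 1 point per library, in mycelium, primordium, young fruiting body, cap and stipe. The 3 genes lie at or below 0.000935% in mycelium and between 2.18% and 4.06% in every library of young fruiting body, cap and stipe.

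Levels are given below as RPKM, obtained by undoing the log2 of the deposited value, so they carry the authors' scaling between libraries. RPKM is per length and can be compared between genes. Gene model 717449 (1239 bases) stood at 4.42, 2.18 and 2.46 RPKM in the mycelium libraries. It had 165 RPKM in the stage 1 primordium and 540.1 and 169.6 in the stage 2 primordia. It reached 12409, 16747 and 8262 RPKM in young fruiting bodies, 8489.9, 17234 and 16362 in caps, and 8789.6 and 6352 in stipes. The log2 differences were 6.43 between primordium and mycelium and 5.60 between young fruiting body and primordium, and the cap mean was the highest of the whole matrix.

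Gene model 846821 (555 bases) was all but unread in mycelium, with 0, 0 and 2 reads. Its primordium libraries held 1202 reads at stage 1 and 13 and 33 at stage 2, or 185, 2.38 and 5.38 RPKM. It then stood at 8892, 6161 and 14339 RPKM in young fruiting bodies, 10311, 6916 and 12138 in caps, and 10263 and 15217 in stipes. The differences of mean log2 RPKM were 7.28 between primordium and mycelium and 9.435 between young fruiting body and primordium. The total, 16.71, was the largest of the matrix as deposited, but the mycelium end of it rests on 2 reads and the 0.5 reads added to each count. On pooled reads the ratio of young fruiting body to mycelium was 153138, with an exact 95% counting interval of 42393 to 1264516. The ratio of primordium to mycelium on pooled reads was 1014 (280.2 to 8383), and 1202 of the 1248 primordium reads came from the stage 1 library. Intervals cover counting error only.

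Gene model 310322 (944 bases) made most of its rise at the first step. It had 1.33, 1.42 and 5.21 RPKM in mycelium, then 5705 in the stage 1 primordium and 1189.5 and 1377 in stage 2. Young fruiting bodies had 7362, 10399 and 5937 RPKM, caps 3072, 7782 and 6854, and stipes 5789 and 4784. The first step was 9.94 and the second 1.87 on the log2 scale, so 84.2% of the rise came before the young fruiting body. The highest primordium library, that of stage 1, lay only 0.058 below the lowest young fruiting body library.

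**Figure D2:**
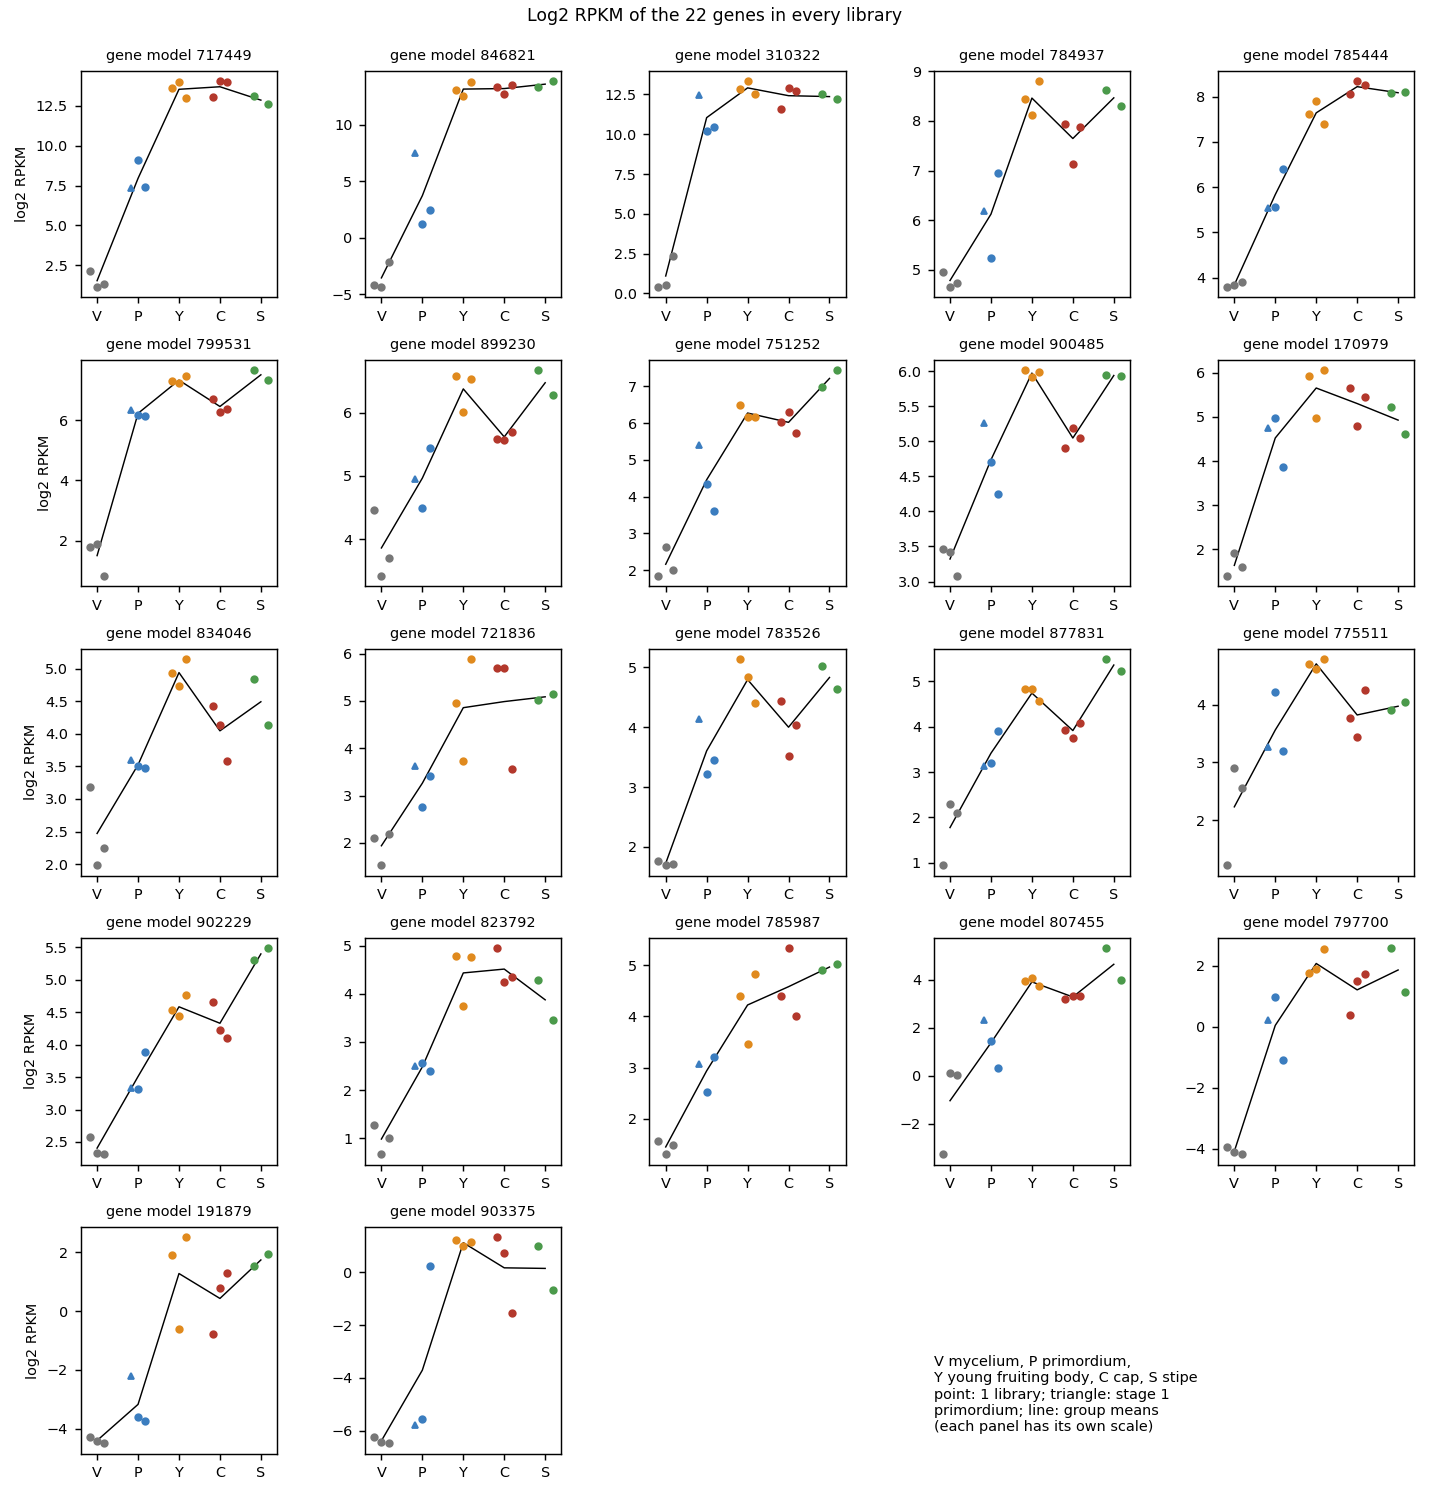
Log2 RPKM of each of the 22 genes in the 14 libraries, ordered by young fruiting body mean, each panel with its own scale; points are libraries, the triangle is the stage 1 primordium and the line joins the group means. In gene models 846821 and 310322 the triangle lies above both stage 2 primordia, at 185 and 5705 RPKM.

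The next 5 members by level stood between 77.7 and 359 RPKM in young fruiting bodies. Gene model 784937 averaged 27.6 ± 3.03 RPKM in mycelium, 78.0 ± 43.7 in primordia, 359 ± 84.7 in young fruiting bodies, 207 ± 58.6 in caps (SD, n = 3 in each) and 356 ± 55.3 in stipes (n = 2). Its primordium libraries, at 72.3, 37.4 and 124 RPKM, had an SD of 0.87 on the log2 scale, the widest of its 5 groups on that scale. Gene model 785444 averaged 14.4 ± 0.516 RPKM in mycelium, 59.5 ± 21.8 in primordia, 201 ± 35.8 in young fruiting bodies, 299 ± 30.6 in caps and 271 ± 4.48 in stipes, with first and second steps of 1.99 and 1.80. With 717449 and 846821 it was 1 of the 3 genes that met the rule under all 26 alternative settings tried.

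Gene model 799531 also rose mostly at the first step. It had 3.50, 3.71 and 1.78 RPKM in mycelium, 81.4, 72.4 and 70.8 in primordia, 158, 148 and 175 in young fruiting bodies, 104, 77.7 and 82.7 in caps, and 202 and 162 in stipes. The first step, 4.71 on the log2 scale, made up 81.1% of its rise, and the second, 1.10, lay just above the threshold. The primordium libraries were close together, at 74.9 ± 5.73 RPKM (SD, n = 3). Gene model 899230 had 96.3, 64.3 and 92.8 RPKM in young fruiting bodies, against 31.1, 22.5 and 43.6 in primordia. Gene model 751252 had 90.3, 71.5 and 71.4 RPKM in young fruiting bodies, against 42.2, 20.4 and 12.3 in primordia. In both, the lowest young fruiting body library lay above the highest primordium library, as the rule required. In 899230 the highest mycelium library, at 22.1 RPKM, nearly reached the lowest primordium library, at 22.5.

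A further 11 members averaged 15.1 to 63.0 RPKM in young fruiting bodies. They were gene models 900485, 170979, 834046, 721836, 783526, 877831, 775511, 902229, 823792, 785987 and 807455. Gene model 900485 was the most even of these, with 64.9, 60.7 and 63.4 RPKM in young fruiting bodies and 62.1 and 60.9 in stipes. Gene model 721836 was the least even, with 31.1, 13.3 and 59.0 RPKM in young fruiting bodies and 51.9, 51.7 and 11.9 in caps. Gene model 807455 had 1, 17 and 17 reads in mycelium, and its log2 level there varied with an SD of 1.93. Over the whole set, 12 of 22 members lay less than 4 above mycelium on the log2 scale in young fruiting bodies.

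The 3 lowest members rested on few reads. Gene models 797700, 191879 and 903375 had 0 reads in every mycelium library and averaged 4.33, 3.37 and 2.19 RPKM in young fruiting bodies. Against a floor of 3 reads over the mycelium group, pooled young fruiting body reads stood 37.1-fold higher for 797700, 38.8-fold for 191879 and 91.9-fold for 903375. Folds over the floor leave out the counting error of the higher group. Gene model 797700 had 6, 9 and 2 reads in the primordium libraries, which pooled stood 9.21-fold above that floor. Gene model 191879 had 1, 0 and 0 reads in primordia, at or under the floor, so no fold is given for its first step. Gene model 903375 had 0, 0 and 30 reads there, all in stage 2 replicate 3. The deposited values add a fixed 0.5 reads to each count before scaling, so 0 reads stood 0.70 higher on the log2 scale in primordia than in mycelium on average, and at least 0.48 higher in any library. For 191879 and 903375 the primordium libraries with 0 reads therefore lay above the mycelium libraries with 0 reads. With the added 0.5 reads scaled to library size, an alternative chosen after seeing the data, neither met the rule and the other 20 did.

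The members divided the rise between the steps in different ways. The first step ranged from 1.05 to 9.94 with a median of 1.76, beside a median of -0.27 over all matrix genes. The second ranged from 1.08 to 9.435 with a median of 1.70, beside 0.35. Since the rule required at least 1 at each step, the members lie above these matrix medians by choice. The first step was the larger in 13 of 22 members. Its share of the log2 rise had a median of 52.9%. Leaving aside 191879 and 903375, whose first step rests on the added 0.5 reads, the share ran from 36.4% in gene model 784937 to 84.2% in 310322. With 191879 and 903375 counted in, at least 2 on the log2 scale was reached by 9 members at the first step and by 7 at the second. Gene model 903375 was among them at both steps, at 2.68 and 4.83, and 191879 at the second, at 4.45. The balance between the steps depended on the scaling between libraries. With reads scaled by library totals alone, the member medians were 0.88 for the first step and 2.25 for the second.

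**Figure D3:**
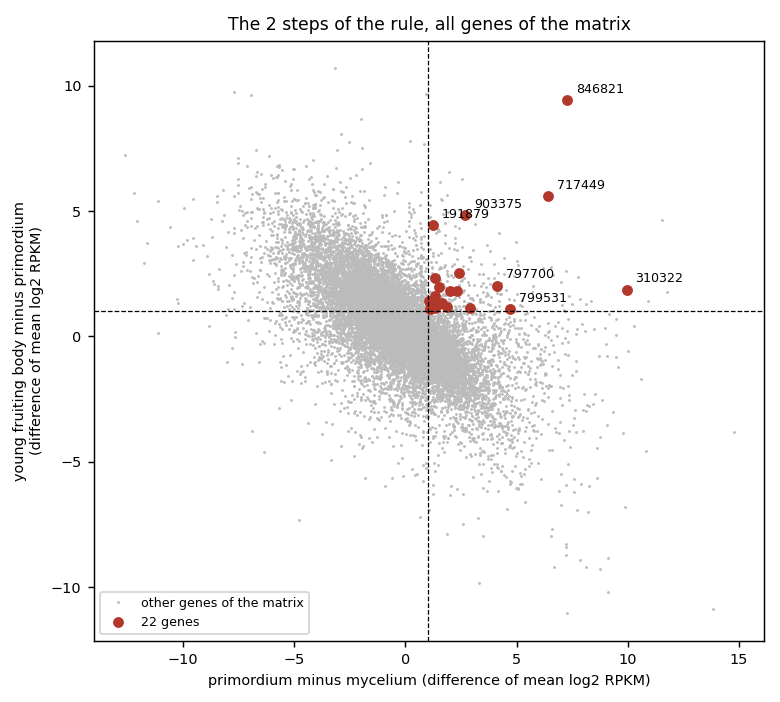
Primordium minus mycelium (x axis) against young fruiting body minus primordium (y axis), as differences of mean log2 RPKM, for the 22 genes (large points) and the other genes of the matrix (grey); dashed lines mark the threshold of 1. Gene models 846821, 717449 and 310322 lie far from most other members; both axes use the primordium libraries.

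The thresholds passed through a continuous range. At the first step gene model 834046 was just inside at 1.05 and gene model 847112 just outside at 0.99. At the second 902229 was inside at 1.08 and 784749 outside at 0.99. For the cap, 903375 was inside at -0.95 and 887751 outside at -1.04. For the stipe, 903375 was inside at -0.97 and 834833 outside at -1.05. Gene model 899230 was kept apart from mycelium by 0.023 and gene model 170979 had its lowest young fruiting body library 0.021 above its highest primordium library, whereas 726975 and 771584 overlapped by 0.055 and 0.049. Genes that failed exactly 1 condition numbered 21 at the first step, 25 at the second, 32 for the cap, 20 for the stipe, 11 for overlap at the first step and 19 for overlap at the second.

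The scaling between libraries weighed on which genes were chosen. TMM, the scaling in the deposited values, gave factors of 0.572 to 0.786 in primordia and 1.14 to 1.35 in mycelium. With library totals alone, the median first step of the members was 0.88 in place of 1.76, and the median of all genes was -1.15 in place of -0.27. The members' median second step was 2.25 in place of 1.70. All 22 members still had positive first and second steps, but 10 reached 1 at the first. Under that scaling 28 genes met the rule, of which 7 were members, namely 717449, 846821, 310322, 785444, 799531, 170979 and 797700. With DESeq2 size factors 15 genes met it, of which 14 were members. Gene models 310322 and 799531 were among the members that did not. Without mycelium replicate 1, 34 genes met the rule, 21 of them members.

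Cap and stipe could be compared with each other, since the rule set each against the young fruiting body only, although it held the difference of means between them under 2 on the log2 scale. The cap fell below the stipe in 3 of 22 members (edgeR quasi-likelihood test, adjusted p under 0.05 over all genes tested and at least 2-fold), and no member was called higher in cap. Over all 15559 genes tested, 12.6% were called, 5.41% lower in cap and 7.15% higher in cap. The members' share of 13.6% was thus near the background. Gene model 877831 had 15.1, 13.4 and 16.9 RPKM in caps and 44.9 and 37.5 in stipes, which gave a difference of -1.45 ± 0.34 on the log2 scale (SE, with an edgeR adjusted p of 0.0166). Gene model 902229 had 25.3, 18.7 and 17.3 RPKM in caps and 39.8 and 44.9 in stipes, a difference of -1.05 ± 0.23 (with an edgeR adjusted p of 0.0128). Gene model 799531, with cap and stipe values given above, differed by -1.05 ± 0.26 (edgeR adjusted p = 0.0211). In all 3 every cap library lay below both stipe libraries.

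All 3 calls were kept when any 1 mycelium or young fruiting body library was left out, but not when a cap or stipe library was. No member was called without cap replicate 2, beside 8.80% of all genes tested, although 5 members then had an unadjusted edgeR p under 0.05. Leaving out a stipe library left 1 in that group, so only log2 differences are given. Without stipe replicate 1 these were -0.85 for 799531, -1.28 for 877831 and -1.11 for 902229. Without stipe replicate 4 they were -1.20, -1.57 and -0.96 in the same order. Only 877831 was called without cap replicate 3 (8.39% of all genes), and only 799531 and 902229 without cap replicate 1 (10.5%). Without primordium replicate 1 the difference of 799531 came just under 2-fold, which left 2 members called, beside 14.3% of all genes. Without primordium replicate 2 this gene was lost in the same way, while 751252 was called (14.4% of all genes). Without primordium replicate 3 there were 4 calls, the 3 above and 751252 (14.9%). With library totals in place of TMM no member was called by edgeR, with 5 at an unadjusted p under 0.05, beside 12.3% of all genes called.

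Cap and stipe means both entered the choice of the members, so the following counts over the set are a description. The cap minus stipe difference was negative in 15 of 22 members, with a median of -0.58, a lowest value of -1.51 and a highest of 0.89, with a median of 0.0043 and 49.5% negative over all genes tested. All cap libraries lay below all stipe libraries in 10 members, and above them in 0, where over the matrix this was so for 27.3% and 28.4% of genes (55.7% together). The 10 included 784937, at 207 ± 58.6 RPKM in caps (n = 3) and 356 ± 55.3 in stipes (n = 2), and 751252, at 65.7 ± 13.3 RPKM in caps and 150.1 ± 33.3 in stipes, neither of which passed the test (edgeR adjusted p = 0.247 and 0.077). Gene model 900485 had an edgeR adjusted p of 0.0354 but a log2 difference of -0.89, under 2-fold. The 3 most abundant genes did not pass the test. The difference was 0.89 ± 0.64 for 717449 (edgeR adjusted p = 0.419), -0.38 ± 1.23 for 846821 (0.892) and 0.16 ± 0.76 for 310322 (0.932). A range of 2 SE around each of these values takes in differences of more than 2-fold.

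**Figure D4:**
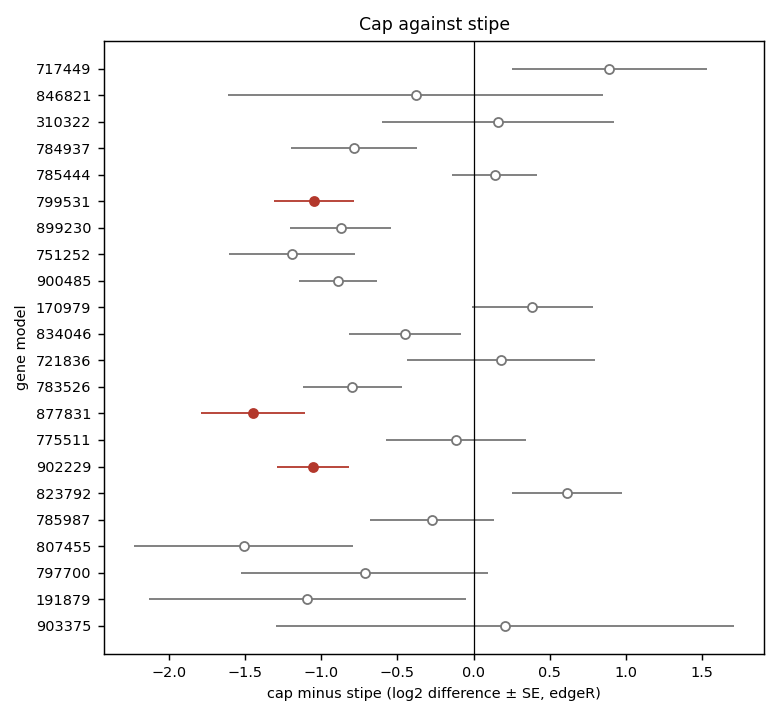
Cap minus stipe log2 difference of each of the 22 genes, with bars of 1 SE from edgeR; filled points are the 3 called genes, 799531, 877831 and 902229. Most points lie left of 0, lower in cap, and run from -1.51 to 0.89.

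Relative to the young fruiting body, a contrast the rule used, the cap mean was lower in 16 of 22 members and the stipe mean in 9. The highest of the 3 means lay in the stipe for 12 members, in the young fruiting body for 7 and in the cap for 3. Cap lower and stipe higher was the commonest arrangement, in 9 members, and 7 members were lower in both. Gene model 751252 had the largest stipe value relative to the young fruiting body, at 0.94 on the log2 scale, and 785444 the largest cap value, at 0.58.

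The stages of primordium were also compared. The rule did not set them against each other, but it used the same libraries, in the primordium mean and in the limits that every primordium library had to keep. The test sets the 2 stage 2 libraries against the lone stage 1 library, which is assumed to vary like the other groups, so stage and that library cannot be told apart. Gene model 846821 was called lower in stage 2, at 2.38 and 5.38 RPKM, against 185 RPKM in the stage 1 library. This was -5.60 ± 0.78 on the log2 scale (SE, with an edgeR adjusted p of 0.00632). The call was kept without each of the other libraries in turn and was lost in a fit of the primordium libraries alone, added after seeing the data (edgeR adjusted p = 0.0552), and with the replicate number as a block (0.0668). It was the only member called, beside 2.65% of the 15874 genes tested, 1.22% lower and 1.43% higher in stage 2.

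Differences in other members did not pass. Gene models 903375 and 191879 had log2 differences of 8.33 and -4.42, but these rest on primordium libraries with 0 reads. Gene model 310322 had 1189.5 and 1377 RPKM in stage 2 and 5705 in stage 1, or -2.15 ± 0.77 on the log2 scale (edgeR adjusted p = 0.184). Gene model 751252 had 20.4 and 12.3 RPKM in stage 2 and 42.2 in stage 1, a difference of -1.37 ± 0.40 (edgeR adjusted p = 0.1). It was called without primordium replicate 1. Gene model 717449 pointed the other way, at 1.10 ± 0.81 (edgeR adjusted p = 0.544). The log2 difference was negative in 13 of 22 members, beside 43.5% of the genes tested. Both stage 2 libraries lay below the stage 1 library in 10 of 22 members and above it in 4, beside 30.9% and 38.4% of matrix genes, again as a description. These counts include 191879, which lay below on 1 read at stage 1. They also include 903375, with 0 reads at stage 1 and in stage 2 replicate 1, which lay above only through the added 0.5 reads. In 846821 and 310322 the stage 1 library, 1 of the 3 behind the primordium mean, was the highest of the primordium libraries.

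**Figure D5:**
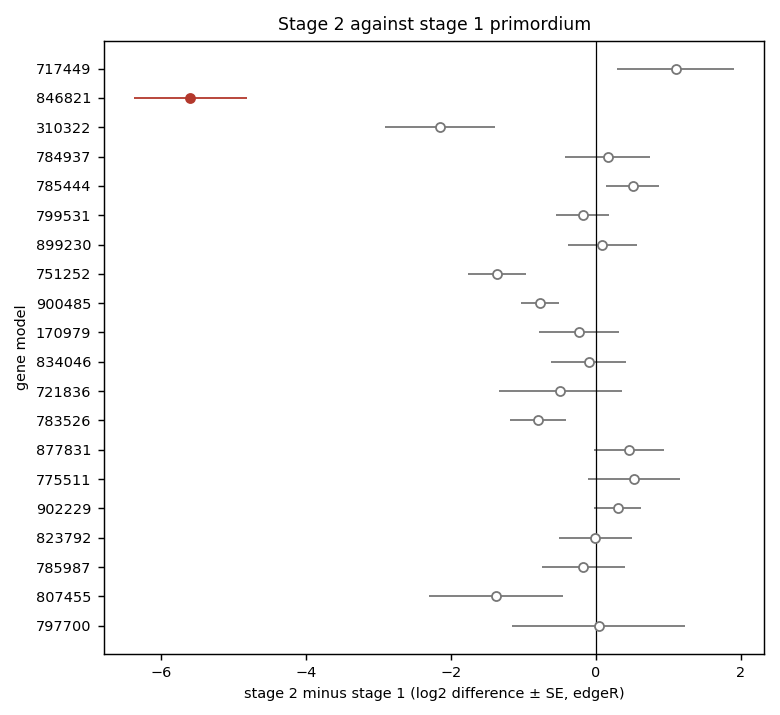
Stage 2 minus stage 1 primordium log2 difference for 20 of the 22 genes, with bars of 1 SE from edgeR; the filled point is gene model 846821, the called gene, at -5.60. Gene models 191879 and 903375, with 0 reads in 2 of the primordium libraries, are left out.

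The members had no common length. Their models ran from 471 to 3395 bases with a median of 1463, beside a median of 1196 over the matrix, and 8 of 22 were shorter than that. The 3 most abundant were 1239, 555 and 944 bases long. Reads were nearly all unique to the model, and the lowest shares were 92.9% in 775511 and 94.3% in 783526. Counting only unique reads gave the same 22 genes. The spread between libraries was taken as the median SD of log2 RPKM over members. It was 0.33 in mycelium, 0.54 in primordia, 0.33 in young fruiting bodies, 0.42 in caps and 0.28 in stipes. Over the matrix it was 0.34, 0.61, 0.40, 0.37 and 0.24 in the same order. The rule kept the libraries of the first 3 groups apart, so their spread is a description.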

How the data were processed

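Per the labels' protocols, libraries were made from polyadenylated RNA with a TruSeq v2 kit. Each library's table lists read counts (all and unique), TPM and RPKM, per the file headers, for the 17139 Ricmel1 gene models. The authors' RPKM and TPM columns were not used further. The deposited counts were whole numbers without normalization. The deposited log2 matrix covered 15477 genes, those with 5 or more reads in 4 or more libraries. Recomputing log2 RPKM from counts plus 0.5, scaled by TMM, matched 100% of these values to 1e-06. Software in the submitters' processing notes was limma 3.18.13, edgeR 3.4.2 and R 3.0.2. The count tables are titled as CLC RNA-Seq output; the version and settings of that tool, and the build, were not given in the sources used here.

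Members were found on the deposited log2 values; they, the comparisons and the naming rule were chosen with earlier results of these data known. That rule took the highest, the largest rises, the called and the borderline genes, and the remaining members are named too. Tests used edgeR 4.0.16 in R 4.3.3 (quasi-likelihood, TMM, filterByExpr) on total counts of all 14 libraries, with 9 residual degrees of freedom for cap against stipe and 8 for the primordium stages; all 22 members passed the filter. SE is the log2 difference over the square root of F. The pipeline was tested on simulated data. Depth was 13.6 to 54.6 (1e6 reads); floors are 3 reads. All replicate pairs differed beyond counting noise, with a chi-square of at least 49.9 per degree of freedom. Alternatives were other scalings, filters, pseudocounts, tests (DESeq2 1.42.0, limma 3.58.1), unique reads, left-out libraries and the replicate number as a block.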

Additional observations from a re-analysis of the deposited data

How the results depend on the processing

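Of 26 alternative settings for the number of genes meeting the rule (22), 22 gave a number within 1.5 times. Steps of at least 1.5 on the log2 scale left 8 genes, steps of at least 1.5-fold gave 67 and overlap allowed gave 71, by construction. Leaving out each library gave 20 to 34 genes, with 15 to 21 of the members among them. For cap against stipe, 3 members were called, beside 12.6% of all genes. Here limma-voom and a fit of the cap and stipe libraries alone called 5 each, beside 17.0% and 18.7%. Library totals called 0 members, beside 12.3% of all genes. Leave-one-out fits that kept both stipe libraries called 0 to 4 members, beside 8.39% to 14.9% of all genes. The cause was not tested. For the primordium stages (1 called, beside 2.65% of all genes), DESeq2 called 2, beside 6.77%. The primordium libraries alone called 0 of 20 members tested (2 at an unadjusted edgeR p under 0.05), beside 0.261% of all genes. Fits without 1 mycelium, young fruiting body or cap library called 1 each, beside 1.43% to 2.90%. Without primordium replicate 1 or 3, which left 1 library per stage, the log2 difference of 846821 was -5.07 and -6.33. No called gene turned direction in any alternative. Adjusted p ran from 0.000463 to 0.213 for 799531, 0.0012 to 0.123 for 877831, 0.000275 to 0.261 for 902229 and 2.01e-15 to 0.0668 for 846821.

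The replicate number as a block left 0 members called in both comparisons (6 and 2 at an unadjusted edgeR p under 0.05). Few genes of any kind were called with the block. They were 100 of 15559 (0.643%) for cap against stipe and 4 of 15874 (0.0252%) for the primordium stages. Over 22 pairs with the same number in different groups, the correlation of deviations ran from -0.301 to 0.080, and 0 exceeded 0.1. Cap and stipe replicate 1 gave the -0.301. Such a correlation cannot show whether a cap and a stipe library came from the same mushrooms, so pairing by number was not settled. Stipe replicate 4 has no partner, so the block rests on the other stipe library.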
